A study of Mus musculus with 4 samples.

Results

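The subunits of the NuRD, BAF and Sin3 chromatin remodelling complexes, with the CtBP corepressors and the histone deacetylases Hdac3 and Hdac7, were followed in double positive thymocytes with and without a Cre recombinase meant to delete Ikaros. The list held 39 genes, 14 of NuRD, 17 of BAF and its polybromo form PBAF, 4 of Sin3, and 4 CtBP or further deacetylase genes. A probe set was taken as a member when its single gene symbol was on the list, which gave 90 of the 45037 probe sets of the array and 38 of the 39 genes. Sap18 was missing from these because its probe sets also carry the symbol of Sap18b. Of the 38 genes, 37 passed a filter on low signal that kept 11639 genes in all, and Smarcd3 did not, at 4.19 and 4.39 on the Cre-negative arrays and 4.12 and 4.32 on the Cre-positive ones, on the log2 scale.

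Double positive thymocytes are the stage of T cell development at which both coreceptors, CD4 and CD8, are on the surface. RNA came from 4 mice, 2 with the genotype Ikf/f CD4-Cre- (Cre-negative) and 2 with Ikf/f CD4-Cre+ (Cre-positive), 1 Affymetrix mouse expression array per mouse. All 4 mice were Ikf/f, the floxed allele of Ikzf1, which encodes Ikaros, and no Cre-positive mouse without that allele was profiled, so an effect of Cre and one of the deletion cannot be told apart. CD4-Cre names a recombinase under regulatory sequence of Cd4, which acts in T lineage cells as they reach this stage. The labels give neither the isolation of the cells nor the age of the mice. Below, a pair of values for a group is that of its samples 1 and 2, in that order. Fewer cells carrying a transcript and less of it per cell cannot be told apart in such bulk RNA.

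NuRD joins a nucleosome-moving ATPase, Chd3 or Chd4, to the deacetylases Hdac1 and Hdac2, and removes acetyl groups from histones while it shifts nucleosomes. BAF slides or ejects nucleosomes through the ATPases Smarca4 or Smarca2, and Sin3 is a scaffold that brings Hdac1 and Hdac2 to transcription factors. Ikaros is known to bind NuRD in lymphocytes and to contact Sin3 proteins, BAF and CtBP, so these genes encode its protein partners. The comparison asks whether the transcripts of those partners differ between mice with and without the Cre meant to delete Ikaros. Neither Ikaros protein nor the deleted allele was measured here.

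Ikzf1, the targeted gene, read 12.40 and 12.08 without Cre and 10.80 and 10.62 with Cre, and fell by 1.53 on the log2 scale (SE 0.16, limma adjusted p = 0.024). Its second, weaker probe set gave −0.22, the groups overlapping, and the mean of both −0.88 (limma adjusted p = 0.037). Without any 1 of the 4 arrays the brighter probe set differed by −1.69 to −1.37 and no longer passed (adjusted p = 0.0717 to 0.164). Of the 9 genes that mark double positive thymocytes and were measured, limma called 0. At an unadjusted p under 0.05 there were 5, where 20.6% of all genes were, and they went both ways. Ptcra (1.16, limma adjusted p = 0.054) and Cd3e (0.41) were higher, and Cd1d1 (−0.66), Cd8a (−0.30) and Cd8b1 (−0.29) lower. The mean signal of the 9, in which such moves offset each other, was 11.46 to 11.57 on the 4 arrays. Among markers of other cells, 2 of 8 macrophage genes (Lyz2 and Ctss), 1 of 7 dendritic genes (H2-Ab1) and 1 of 6 stromal genes (Pdgfrb) rose, against 0 of 5 granulocyte, 0 of 4 B cell and 0 of 1 erythroid genes in limma, with 0, 1 and 0 at an unadjusted p under 0.05. None of these markers was called as lower. The mean signals of macrophage genes were 5.16 to 5.24 in Cre-negative and 6.18 to 6.31 in Cre-positive mice. For dendritic genes they were 5.48 to 5.87 and 6.59 to 6.62, and for stromal genes 5.64 to 5.67 and 6.39 to 6.86. Most of the stromal rise lay in Col1a2, at 5.18 and 5.33 without Cre and 11.55 and 8.01 with Cre (limma adjusted p = 0.107). Of the 6 stromal genes, 3 differed by more than 0 and 3 by less. For macrophage genes the split was 7 and 1, and for dendritic genes 6 and 1. Groups overlapped for the macrophage genes Csf1r (0.19) and Adgre1 (−0.03), and for the dendritic genes Flt3 (−0.16) and Siglech (0.01). The granulocyte list was at 4.72 to 4.88 on 3 arrays and at 6.85 in Cre-positive sample 2. Among defining markers, Cd68, Mrc1, Mpo, S100a9, Xcr1, Cd79a, Col1a1, Col3a1, Gata1, Klf1 and Hba-a1 had means below the signal filter. C1qc, C1qb, Itgax, S100a8, Ltf and Ms4a1 had Cre-negative means below it and passed only through the Cre-positive arrays. A difference was thus built into the selection of these genes, and into the means of their lists. Proliferation genes, of which limma called 0 of 19 with 3 at an unadjusted p under 0.05, had mean signals of 8.63 and 9.57 without Cre and 9.28 and 10.16 with Cre. Cre-negative sample 2 was the sole array with high Xist (12.75, against 4.73 to 5.37), the pattern of a female mouse. The part of these other cells, of proliferation and of sex in the results below was not tested.

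No subunit gene passed the test. Of the 37 members measured, 0 rose and 0 fell in limma at an adjusted p under 0.05, where 1.37% of all genes were called, 1.11% as higher and 0.266% as lower. At an unadjusted p under 0.05 there were 3 higher members, Cdk2ap1, Sap30 and Smarcc1, and 3 lower ones, Mbd2, Brd9 and Mta3, or 16.2% of members against 20.6% of all genes (14.3% higher, 6.29% lower). The 2 groups of arrays did not overlap for 22 members (59.5%), where 52.9% of all genes showed no overlap; 14 were higher and 8 lower, against 34.2% and 18.7% of all genes. Of these, 8 also differed by at least 0.3, which is 21.6% of members and 25.2% of all genes. They were 3 higher members, against 17.3% of all genes, and 5 lower ones, against 7.94%. The shares of members past these marks were thus near or below those of all genes, except for the last, 13.5% of members. The median difference of the members, Cre-positive minus Cre-negative, was 0.02, against 0.06 for all genes, and it was −0.01 with each array centred on its median, where that of all genes was 0.03.

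The size of a change that these arrays leave room for is limited. The intervals counted here are those of the brightest probe set of each gene, on the log2 scale. For 36 of the 37 members the 95% interval lay wholly between −1 and 1, so a doubling or a halving was outside it. For 17 it lay wholly between −0.5 and 0.5. The exception to the wider bound was Chd4, with an interval from −0.48 to 1.19. Dimmer probe sets of other members also passed the wider bound, so for these genes a 2-fold change is not outside every interval. They reached −1.27 for Mbd2 and −1.07 for Dpf2, and 1.05 for Smarcc1, 1.06 for Gatad2a and 1.02 for Sin3a. These intervals come from the limma fit, with a spread shared across genes and 2 mice per group, and are not adjusted for the number of genes. Member signals ranged from a mean of 6.61 (Smarcd1) to 12.99 (Smarcd2) over the 4 arrays, all well above the filter at 4.76.

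**Figure D1:**
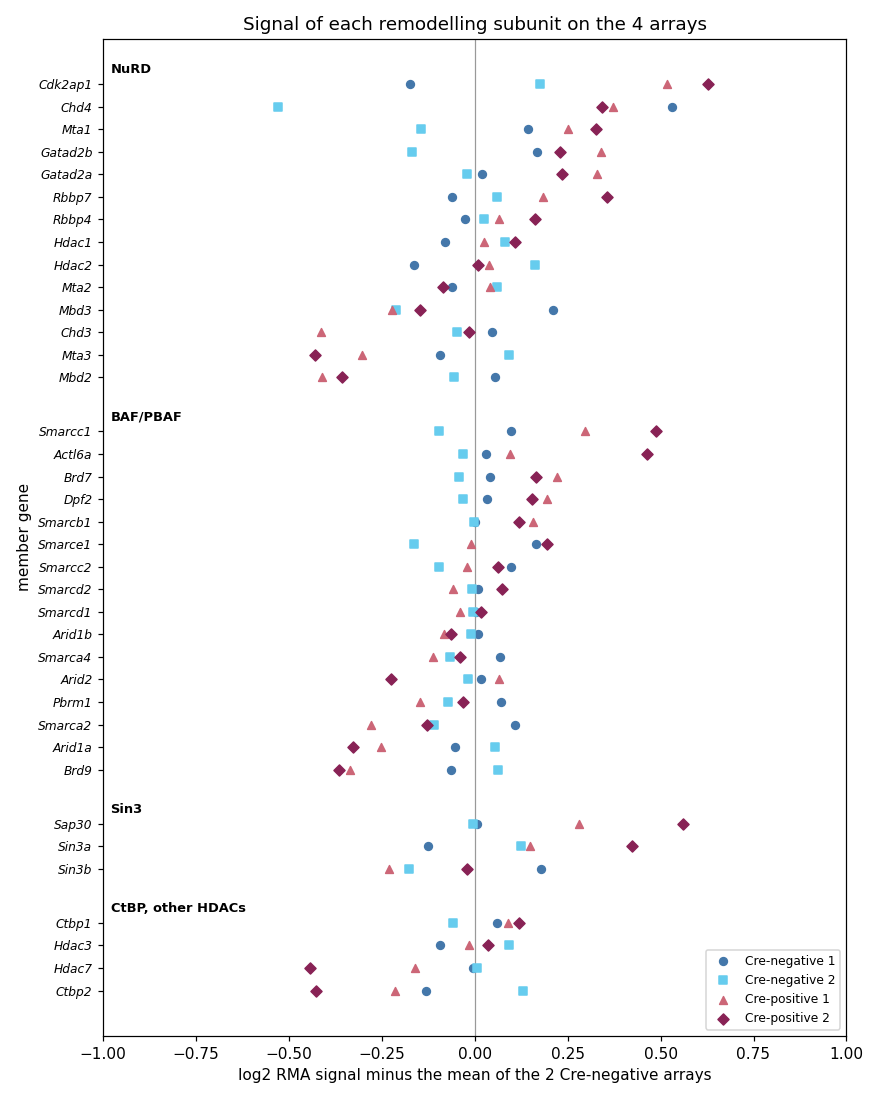
Signal of each of the 37 members on the 4 arrays, as the log2 RMA signal minus the mean of the 2 Cre-negative arrays, with 1 symbol per array and genes grouped by complex. Cdk2ap1 and Sap30 show both Cre-positive arrays to the right of both Cre-negative ones, Mbd2, Mta3 and Brd9 to the left, while the 2 Chd4 values of Cre-negative mice lie farther apart than the groups.

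**Figure D2:**
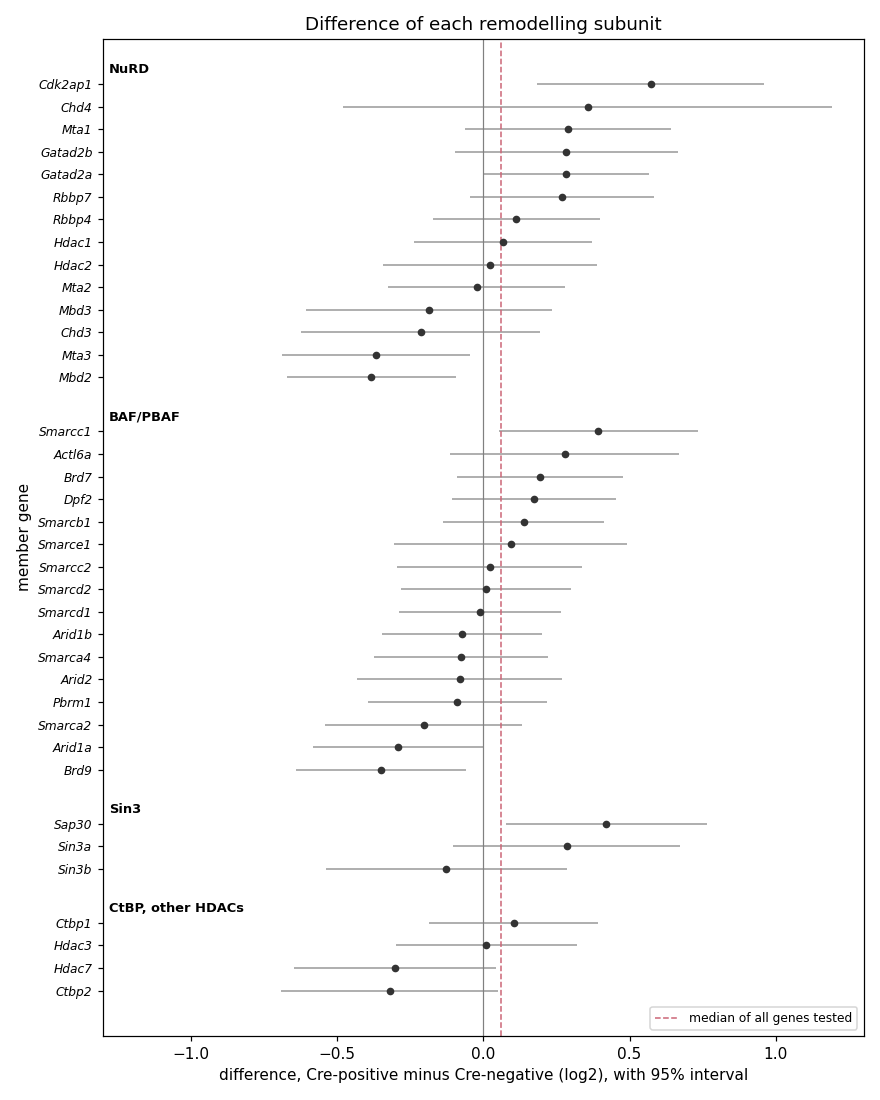
Difference between Cre-positive and Cre-negative means for each member on the log2 scale; points are limma estimates, bars their 95% intervals (n = 2 mice per group), and the dashed line is the median of all genes tested (0.06). The intervals of 6 members leave out 0, before any adjustment, and none of the 37 passed after adjustment.

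Among NuRD genes, the member with the smallest p was Cdk2ap1, which encodes a small subunit first described as a partner of the kinase Cdk2. Its brightest probe set read 10.99 and 11.34 without Cre and 11.68 and 11.79 with Cre. Both Cre-positive arrays were the higher, and the 2 Cre-negative arrays were farther apart than the 2 Cre-positive ones. The means were 11.16 ± 0.25 and 11.73 ± 0.08 (SD, n = 2 each), a difference of 0.57 (1.49-fold; SE 0.16; limma adjusted p = 0.133; 95% interval 0.19 to 0.96). The other Cdk2ap1 probe sets differed by 0.55 and 0.50, but the names of all 3 mark them as able to bind more than 1 transcript. Without Cre-negative sample 1, the array lowest in proliferation genes, the Cdk2ap1 difference was 0.40, and without Cre-negative sample 2 it was 0.75.

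Mbd2, the subunit that binds methylated DNA, went the other way. It read 10.55 and 10.44 without Cre and 10.08 and 10.14 with Cre, with no overlap, a difference of −0.38 (SE 0.12; limma adjusted p = 0.157). A second Mbd2 probe set read 8.30 and 7.56 against 7.21 and 7.29 and differed by −0.67 (limma adjusted p = 0.256). Both probe sets thus placed the Cre-positive mice lower. Mbd3, its relative that replaces Mbd2 in a distinct form of NuRD and has little affinity for methylated DNA, read 8.12 and 7.70 against 7.69 and 7.76, so that its groups overlapped and Cre-negative sample 1 stood apart.

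The Mta proteins are the scaffold on which the deacetylases dimerise. Mta3 read 8.46 and 8.65 without Cre and 8.25 and 8.12 with Cre, a difference of −0.37 (SE 0.13; limma adjusted p = 0.195). The other Mta3 probe sets differed by −0.22 and 0.10, and the mean of all 3 by −0.16. Mta1 differed by 0.29 without overlap of the groups, at the lowest signal of the NuRD genes, 6.65 and 6.36 against 6.76 and 6.83, and Mta2 by −0.02.

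The catalytic subunits of NuRD showed no difference outside their spread. Hdac1 differed by 0.07 (95% interval −0.24 to 0.37) and Hdac2 by 0.02 (−0.34 to 0.39), both with overlapping groups. Chd4 read 10.59 and 9.53 without Cre and 10.43 and 10.40 with Cre. The low value belonged to Cre-negative sample 2 and recurred in another probe set of that gene (6.90 against 7.27 to 7.78 on the other arrays), but not in the third, where that sample was the highest at 10.18. Chd3 read 8.27 and 8.18 against 7.81 and 8.21.

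The remaining NuRD genes encode the histone-binding proteins Rbbp4 and Rbbp7, which Sin3 also contains, and the zinc finger proteins Gatad2a and Gatad2b, which join the ATPase to the deacetylase module. Rbbp7 read 11.67 and 11.79 without Cre and 11.92 and 12.09 with Cre, a difference of 0.27 (limma adjusted p = 0.307), and 0.20 in its other probe set. Rbbp7 is on the X chromosome, and the array with high Xist read 11.79; the part of sex in its difference was not tested. Rbbp4 differed by 0.11, Gatad2a by 0.28 and Gatad2b by 0.28, each without overlap. With the mean of their probe sets Gatad2a differed by 0.06 and Gatad2b by 0.08. The Gatad2b value rested in part on the Cre-negative arrays, at 0.45 with sample 1 of that group left out and 0.12 with sample 2 left out. Over the 14 NuRD genes the median difference was 0.09, with 9 above 0 and 5 below.

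In BAF, the ATPase genes differed little. Smarca4 differed by −0.08 (95% interval −0.37 to 0.22) and Smarca2 by −0.20, and a second Smarca2 probe set by 0.39, with Cre-negative sample 2 low there at 7.06 against 7.78 to 7.86 elsewhere. The core subunit gene Smarcc1, called BAF155 or Srg3 in mouse thymus, read 11.17 and 10.98 without Cre and 11.37 and 11.56 with Cre. Its groups did not overlap, and it differed by 0.39 (1.31-fold; SE 0.14; limma adjusted p = 0.194). Of its dimmer probe sets, 1 read 6.83 and 7.12 against 7.56 and 7.76 and differed by 0.68 (limma adjusted p = 0.105), another by 0.49, and the dimmest, near the filter, by −0.23. Its paralogue Smarcc2 differed by 0.02.

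Brd9, a bromodomain protein that marks the non-canonical form of BAF, read 9.36 and 9.48 without Cre and 9.08 and 9.05 with Cre. It differed by −0.35 without overlap (SE 0.12; limma adjusted p = 0.181) and had 1 probe set. Brd7, its relative in PBAF, differed by 0.19, also without overlap, at 9.85 and 9.76 against 10.02 and 9.97. The other PBAF subunit genes, Pbrm1 and Arid2, differed by −0.09 and −0.08 with overlapping groups. A dimmer Arid2 probe set read 10.75 and 10.64 without Cre and 11.11 and 10.91 with Cre, and differed by 0.31 without overlap (limma adjusted p = 0.314).

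Arid1a, the DNA-binding subunit of canonical BAF, read 11.13 and 11.24 without Cre and 10.94 and 10.86 with Cre and differed by −0.29 (limma adjusted p = 0.243), but its second probe set differed by 0.17. Arid1b, the alternative to Arid1a, differed by −0.07. The structural subunit genes Smarcb1, Smarcd1, Smarcd2 and Smarce1 differed by 0.14, −0.01, 0.01 and 0.09. Actl6a, the actin-related subunit of dividing cells, differed by 0.28, most of it in Cre-positive sample 2 (10.50, against 10.01 to 10.13 on the other arrays), which was also the array highest in proliferation genes. Dpf2, a subunit with a double PHD finger that reads acetylated histones, differed by 0.17. Of the 16 BAF genes measured, 8 were above 0 and 8 below, with a median of 0.00.

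Among Sin3 genes, Sap30, which encodes a small protein that steadies the Sin3 deacetylase complex, read 8.18 and 8.17 without Cre and 8.46 and 8.74 with Cre. The groups did not overlap, and the difference was 0.42 (1.34-fold; SE 0.14; limma adjusted p = 0.177); it was 0.28 when Cre-positive sample 2 was left out and 0.56 when sample 1 of that group was. Sin3a, the scaffold, read 8.90 and 9.15 against 9.17 and 9.45 and differed by 0.29 (limma adjusted p = 0.372), while its other probe sets differed by 0.47 and 0.11. The second scaffold gene, Sin3b, read 12.44 and 12.08 against 12.03 and 12.24, so its groups overlapped. The 5 probe sets shared by Sap18 and Sap18b differed by −0.10 to 0.12.

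The CtBP proteins are corepressors that Ikaros contacts through a short peptide motif. Ctbp1 differed by 0.10, at 11.35 and 11.23 against 11.38 and 11.41. Ctbp2 read 7.38 and 7.64 without Cre and 7.30 and 7.09 with Cre, a difference of −0.32 (SE 0.15; limma adjusted p = 0.304), though a probe set below the signal filter differed by 0.33, and the mean of both by 0.01. With Cre-negative sample 2 left out the difference was −0.19. Hdac7, a class IIa deacetylase that double positive thymocytes use to hold back genes of negative selection, read 10.96 and 10.97 against 10.81 and 10.52. Its difference of −0.30 (SE 0.14; limma adjusted p = 0.296) was −0.16 when Cre-positive sample 2 was left out and −0.44 when sample 1 of that group was. The other Hdac7 probe set differed by −0.11. Hdac3, the deacetylase of the NCoR complex, differed by 0.01 (95% interval −0.30 to 0.32).

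The test was then run on every probe set with 1 symbol, 34945 in all. Of the 90 member probe sets, 0 were called in limma, where 0.687% of all probe sets were, and 18 had an unadjusted p under 0.05, which is 20% of them against 16% of all. They were 8 higher probe sets, where 9.38% of all were, and 10 lower ones, where 6.58% were. The groups did not overlap in 46 of the 90, or 51.1%, against 46% of all. The 4 smallest p-values among members belonged to probe sets that were not the brightest of their gene, and each was lower in the Cre-positive mice. A dimmer Dpf2 probe set (1429903_at) read 8.74 and 8.74 without Cre and 7.87 and 8.06 with Cre, a difference of −0.77 (SE 0.12; limma adjusted p = 0.0596). For Actl6a, 1429883_at read 9.47 and 9.56 against 8.98 and 8.79, a difference of −0.63 (limma adjusted p = 0.0879). These values oppose the brighter probe sets of both genes, which differed by 0.17 and 0.28.

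The same was seen in 3 NuRD genes. Gatad2b probe set 1447026_at read 6.34 and 6.28 without Cre and 5.79 and 5.73 with Cre (difference −0.55, limma adjusted p = 0.0892). Gatad2a probe set 1445239_at read 8.81 and 8.93 against 8.36 and 8.10 (−0.64, limma adjusted p = 0.099). Rbbp4 probe set 1456260_at read 8.36 and 8.46 against 7.98 and 8.09 (−0.37, limma adjusted p = 0.202). In each of these 5 genes the brightest probe set was higher by any amount and another was lower by at least 0.3, without overlap of the groups in either. They were 18.5% of the 27 measured members with more than 1 probe set, and this arrangement, looked for after the values were seen, held for 3.6% of all such genes; its mirror image held for 0 of the 27 members and 1.18% of all such genes. The names of the brightest Gatad2a, Rbbp4 and Actl6a probe sets mark them as able to bind more than 1 transcript. Those of the lower probe sets carry no such mark. The sources used here do not say which part of the transcript each probe set reads. Opposite differences of at least 0.3, regardless of overlap, were present in Gatad2a, Gatad2b and Ctbp2, 11.1% of the 27 against 2.69% of all genes with more than 1 probe set.

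**Figure D3:**
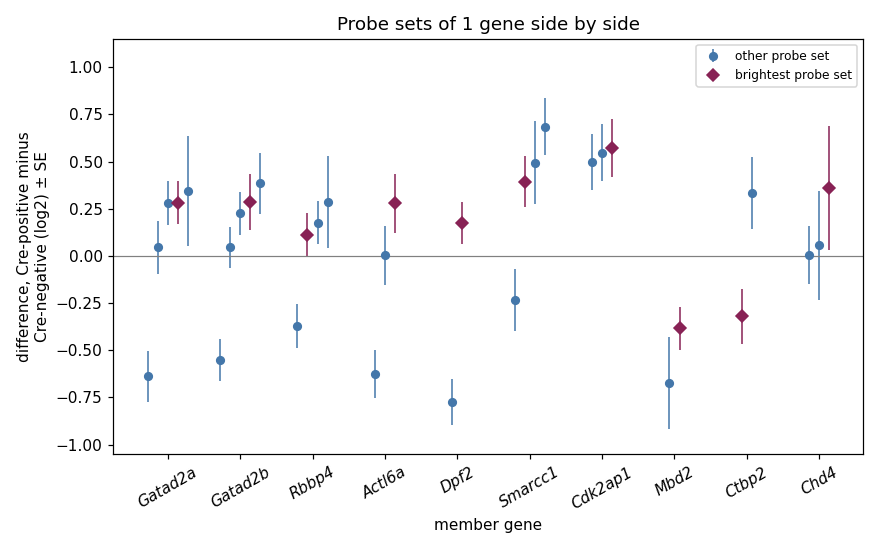
Difference between Cre-positive and Cre-negative means (log2, ± SE of the limma fit, n = 2 mice per group) for every probe set of 10 members, with the brightest probe set of each gene as a diamond and the others as circles. Gatad2a, Gatad2b, Rbbp4, Actl6a, Dpf2 and Smarcc1 each have 1 probe set far below the others, that of Smarcc1 being its dimmest. The 2 probe sets of Ctbp2 also lie far apart, with the brighter the lower, while the 3 probe sets of Cdk2ap1 lie together.

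Complexes of this kind choose between related subunits, so the balance within 13 pairs was followed as the log2 ratio of the brightest probe sets on each array, relative to the mean of the Cre-negative arrays. The Smarcc1 to Smarcc2 ratio was at 0.00 on both Cre-negative arrays and at 0.32 and 0.42 on the Cre-positive arrays, a shift of 0.37. The Mta1 to Mta3 ratio was at 0.24 and −0.24 without Cre and 0.55 and 0.76 with Cre, a shift of 0.66. Both ratios separated the groups, the first with the closer Cre-negative arrays. Separation is common here, as 52.9% of all single genes also showed no overlap. A dimmer probe set of each of Mta3, Ctbp2 and Arid1a differed in the opposite direction to the brightest one used here. The Ctbp1 to Ctbp2 ratio shifted by 0.42 and that of Sin3a to Sin3b by 0.41, without overlap of the groups, though in each the 2 Cre-negative arrays were 0.38 or more apart.

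For the deacetylases the ratio of Hdac1 to Hdac2 shifted by 0.04, and that of Gatad2a to Gatad2b by −0.00. The Chd4 to Chd3 ratio shifted by 0.57 and that of Smarcd1 to Smarcd2 by −0.02. Groups overlapped in all of these pairs and in none of the others. The Arid1a to Arid1b ratio shifted by −0.22, that of Smarca4 to Smarca2 by 0.13 and that of Mbd3 to Mbd2 by 0.20. The shift was 0.31 for Mta1 to Mta2 and −0.16 for Rbbp4 to Rbbp7. In an exact permutation test with 2 against 2 arrays the smallest two-sided p is 0.333 (0.481 after Benjamini-Hochberg adjustment over the 13 pairs), so this test could not call any shift and the ratios are given as a description.

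**Figure D4:**
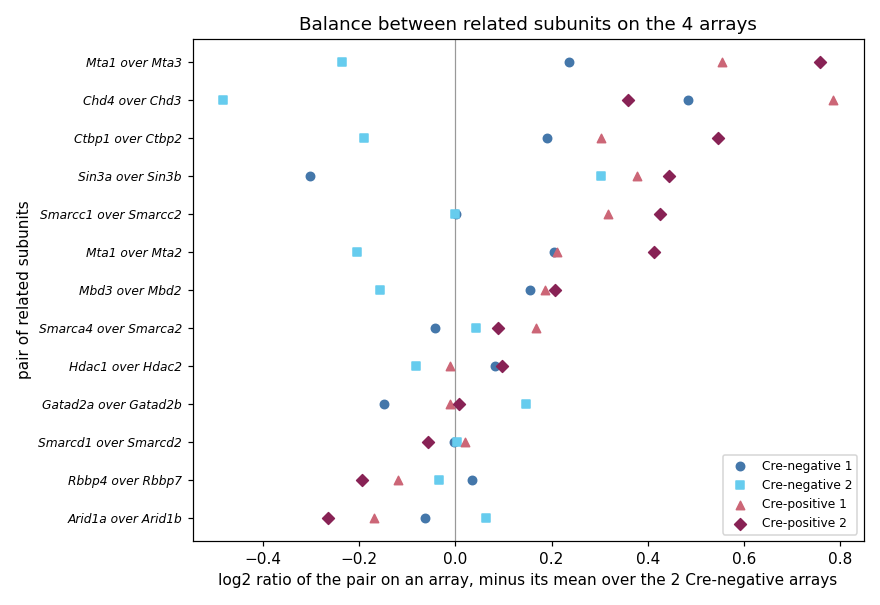
Balance between related subunits: the log2 ratio of the signals of the first gene over the second on each array, minus the mean of that ratio over the 2 Cre-negative arrays, with 1 symbol per array. Mta1 over Mta3 and Smarcc1 over Smarcc2 have both Cre-positive arrays to the right of both Cre-negative ones, and Arid1a over Arid1b to the left. Groups overlap only for Chd4 over Chd3, Hdac1 over Hdac2, Gatad2a over Gatad2b and Smarcd1 over Smarcd2.

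Ikaros binds DNA through zinc fingers that recognise the core GGGAA, most often as TGGGAA, so the bases upstream of the members' transcription starts were searched for both, on either strand; every match to the longer motif is also one to the core. RefSeq sequence (GRCm38.p6) was at hand for 32 of the 39 genes in 42 windows of 250 bases; Hdac3, Chd3, Arid2, Hdac1, Mbd2, Mta3 and Smarce1 had none. TGGGAA was present in 4 of the 42 windows (9.5%), against 21.6% of 32851 windows of all genes, and GGGAA in 22 (52.4%), against 56.2%. The windows of Cdk2ap1 and Sap30, the 2 higher members of smallest p, are shown whole, with each GGGAA core in capitals.
Cdk2ap1, chr5:124354629-124354878, minus strand: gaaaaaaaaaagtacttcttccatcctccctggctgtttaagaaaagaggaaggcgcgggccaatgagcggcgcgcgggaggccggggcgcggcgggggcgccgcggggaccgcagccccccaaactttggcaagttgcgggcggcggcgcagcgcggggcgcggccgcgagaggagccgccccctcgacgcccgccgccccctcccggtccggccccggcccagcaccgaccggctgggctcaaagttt
Sap30, chr8:57487861-57488110, minus strand: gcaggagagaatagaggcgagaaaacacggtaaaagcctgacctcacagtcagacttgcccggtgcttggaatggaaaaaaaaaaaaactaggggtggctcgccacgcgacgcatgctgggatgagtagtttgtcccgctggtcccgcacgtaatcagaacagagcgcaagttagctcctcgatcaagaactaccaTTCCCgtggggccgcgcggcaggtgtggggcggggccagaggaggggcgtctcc
The Cdk2ap1 window holds no core and is rich in CG pairs, and that of Sap30 holds 1, on the opposite strand.

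The lower member with the smallest p and a window was Brd9, whose window overlaps the start of the neighbouring gene Trip13 and holds 1 core, shown in capitals in a stretch of 30 bases.
Brd9, chr13:73937591-73937620, plus strand: gccgggagccgaGGGAAtgccgccggagtg
The 4 windows with the longer motif belonged to Hdac7, which was lower without passing the test, and to Ctbp2, Gatad2a and Actl6a, whose probe sets disagreed. They are shown as 30 bases each with TGGGAA, or its complement TTCCCA, in capitals.
Ctbp2, chr7:133081924-133081953, minus strand: agttgaaggcatTGGGAAaatgcaattaaa
Hdac7, chr15:97844569-97844598, minus strand: tgcctatctctcTGGGAAtgaagctggcaa
Gatad2a, chr8:69974515-69974544, minus strand: tagcagcccaagTGGGAAacccagtcgctt
Actl6a, chr3:32708296-32708325, plus strand: caagcctcttaaTTCCCAgtacctaattaa
The motif begins 81 bases before the start in Ctbp2, 84 in Hdac7, 149 in Gatad2a and 238 in Actl6a, and in Ctbp2 and Gatad2a that start lies inside the span of the gene. A match is no evidence of binding, and 3 of these genes have further windows without it.

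Of 81 measured genes in 7 further lists of remodelling, deacetylase and acetyltransferase genes, 1 rose and 0 fell in limma, with a median difference of 0.03. At an unadjusted p under 0.05 there were 7 higher and 8 lower, where 14.3% and 6.29% of all genes were. That gene was Chd7, an ATPase of the CHD family outside NuRD, which read 4.32 on both Cre-negative arrays, below the signal filter, and 6.05 and 5.76 on the Cre-positive arrays. It passed that filter only through the Cre-positive arrays, so that a difference was built into its selection, and the equal Cre-negative values may lie under what the arrays can measure. The fitted difference, 1.58 (SE 0.14; limma adjusted p = 0.0181) or 1.02 with the mean of its probe sets, is therefore not a measured fold. The call was lost without Cre-negative sample 1 (adjusted p = 0.174), Cre-negative sample 2 (0.127) or Cre-positive sample 1 (0.0709), while the fitted difference was then 1.44 to 1.58. Of the other 22 CHD, ISWI, INO80 and related remodeller genes, 0 passed; Baz2b differed by −0.41 (limma adjusted p = 0.148).

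Of 13 further Sin3 genes, 0 passed in limma and 3 had an unadjusted p under 0.05, Ogt, Ing1 and Brms1l, each lower, where 6.29% of all genes were lower at that mark. Ogt, the enzyme that attaches N-acetylglucosamine to nuclear proteins and binds Sin3, read 12.12 and 11.91 without Cre and 11.49 and 11.30 with Cre, a difference of −0.63 (SE 0.14; limma adjusted p = 0.0962). Ing1, which reads methylated histone H3 for the complex, differed by −0.30 (limma adjusted p = 0.209). Of 12 further BAF genes, 0 passed in limma and 0 had an unadjusted p under 0.05; Bcl7c differed by 0.28 and Dpf1 by 0.34.

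Among 12 other deacetylase genes, 0 passed in limma and 4 had an unadjusted p under 0.05, of which 2 were higher and 2 lower, where 20.6% of all genes had one. Hdac6, which acts on tubulin, read 6.50 and 6.95 against 7.51 and 7.38, a difference of 0.72 (SE 0.18; limma adjusted p = 0.116), and the sirtuin gene Sirt7 differed by −0.51 (limma adjusted p = 0.143). Of 9 CoREST genes, 0 passed in limma and 2 had an unadjusted p under 0.05, Gse1 at −0.36 and Rcor3, a scaffold of the complex, at 0.35. The 3 NCoR genes measured had 0 called in limma and 0 at an unadjusted p under 0.05, with Tbl1x at 0.17 and Gps2 at −0.16. Of 9 acetyltransferase genes, which oppose the deacetylases, 0 passed in limma and 1 had an unadjusted p under 0.05, Kat2a, at 7.74 and 8.03 against 8.62 and 8.41 and a difference of 0.63 (limma adjusted p = 0.111); Ep300 differed by 0.21.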

How the data were processed

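The deposited table holds log2 signals made by the authors with RMA per the submitters' processing notes, a method that subtracts background, equalises the distributions of the arrays and combines the probes of each set; the base of the logarithm is taken as 2 because RMA returns that scale. RNA was amplified in a 2-cycle labelling with several amounts of starting RNA that the labels' protocols tie to no sample, so a batch that coincided with the groups cannot be told apart from them. Values lay between 2.18 and 14.4. Arrays give no counts, and 2 per group limit the precision.

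Gene names came from the platform annotation; 34945 probe sets had 1 symbol, 932 several and 9160 none. Each gene took its brightest probe set, and genes at or above the 40th percentile of named probe sets (4.76) were kept. Groups were compared with limma 3.58.1 in R 4.3.3 (lmFit, eBayes, two-sided, Benjamini-Hochberg adjustment over all 11639 genes, call at an adjusted p under 0.05), and again over all named probe sets. Residual degrees of freedom were 2 and the prior 3.59; the code was tested on simulated data.

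Members and lists were chosen with earlier results of these data known. Array values are given for members whose groups do not overlap with a difference of at least 0.3, with an unadjusted p under 0.05, or with opposed probe sets; others were added after their values were seen. From other lists, called genes and those of smallest p are named. Upstream windows of related pairs are printed only around a TGGGAA match. Alternatives varied the filter, probe set choice, scaling, prior, a block for the sample number, and the arrays used, each left out in turn. Figures were drawn with matplotlib 3.10.9.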

Additional observations from a re-analysis of the deposited data

How the results depend on the processing

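The count of members called stayed at 0 under each of the 13 alternatives. That of member probe sets was 0 except with a robust prior, where it was 1 (Dpf2 1429903_at, limma adjusted p = 0.0485), and with the sample number as a replicate block, where it was 2 (the same Dpf2 probe set and Smarcc1 1455246_at). The block raised the calls among all genes from 160 to 821 and among all probe sets from 240 to 1221; deviations of arrays with the same number correlated at 0.18, but with 2 pairs the labels give no reason to treat the number as a pairing. A robust prior gave 245 genes and 509 probe sets, the 60th percentile filter 90 genes, and transcript-specific probe sets alone 104 genes. Leaving out Cre-negative sample 1 gave 14 genes and leaving out sample 2 of that group 3; for the Cre-positive arrays the counts were 43 and 99. Calls among probe sets were then 0 to 41; a group left with 1 array was assumed to vary like the other. The median difference of the members was −0.0233 with transcript-specific probe sets alone and lay between 0.0005 and 0.0631 with 1 array left out. Ctbp2 differed by 0.0069 with the mean of its probe sets and Gatad2a by −0.64 with transcript-specific probe sets alone, both against their direction above. Outside the 12 genes counted below, the brightest transcript-specific probe sets of Rbbp4 (−0.37), Actl6a (−0.63) and Smarca2 (0.39) opposed the values above too. Each of these reversals follows from the probe sets taken. In 145 of 154 values for 12 named genes the direction and the side of the threshold were the same. Much of this was fixed in advance, because the filter, the prior and the block leave the difference of a gene as it is. The groups of these 12 genes did not overlap, so leaving out 1 array could not reverse a direction. Only scaling and the choice of probe sets could, so the count is no measure of robustness. Sizes moved by more than 1.5 times for Ikzf1, Chd7, Mta3, Gatad2a, Gatad2b, Ctbp2 and Hdac7 as given above. The remaining values were the reversals of Ctbp2 and Gatad2a and calls of Ikzf1 and Chd7 lost with 1 array left out.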
